A study of Saccharomyces cerevisiae with 10 samples.

Results

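Ribosome biogenesis factors are the nucleolar and nuclear proteins that fold, cut and modify ribosomal precursor RNA and assemble it with ribosomal proteins into the small and large subunits. The mRNAs of 60 such factors in Saccharomyces cerevisiae, chosen by gene name, were described among 5913 nuclear mRNA genes, and every name was found in the annotation. Protein-bound stretches had been mapped by gPAR-CLIP, in which cells take up 4-thiouracil, long-wave UV joins the labelled RNA to the proteins that touch it, and the bound RNA is recovered through its biotin-tagged proteins. The series held 10 libraries in 5 groups of 2 replicates, and for each group the authors deposited 1 list of protein-bound intervals, called clusters, that pools both replicates. The groups used were polyA RNA after 2 h without glucose, polyA RNA after 2 h without nitrogen, total RNA of log-phase cells and polyA RNA of log-phase cells, all taken from the top of the gradient, lighter than the small ribosomal subunit. All came from the wild-type strain BY4742, which carries his3, leu2, lys2 and ura3 deletions and whose mating type the labels give as MATa. All cultures grew at 30 °C in synthetic defined (SD) medium with 200 µM 4-thiouracil and received 4 exposures of 150 mJ/cm2 at 365 nm, so starved cells had been in 4-thiouracil before the change of medium. The labels do not say whether the starvation medium held it.

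The lists held 33345 clusters after glucose starvation, 38936 after nitrogen starvation, 51574 in total RNA and 61035 in log-phase polyA RNA, and covered 398836, 459603, 794967 and 693218 nt in that order. A further list of the heavy part of the gradient held 115 clusters, and 0 of them lay on the 60 mRNAs. Clusters carry no score and replicates are not separate, so no difference below has a replicate check or a p-value, and intervals cover counting error only. Clusters were counted on the strand of the gene, from 100 nt before the start codon to 150 nt after the stop codon. More RNA of a gene and more protein on each RNA both lengthen its covered sequence and cannot be told apart here, and no unselected RNA was set against the clusters.

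In yeast the genes of these factors are known as a regulon that is switched off together when nutrients run out, and their promoters are known for a pair of short elements, PAC and RRPE. PAC is bound by the repressors Dot6 and Tod6, and RRPE by the repressor Stb3. Their mRNAs are also known as a main target group of Puf4, a Pumilio-family protein that binds sites of the form TGTANANTA downstream of the coding sequence and promotes mRNA decay. The sister protein Puf3 is known for TGTANATA sites in mRNAs of mitochondrial ribosomal proteins.

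The 60 genes shared sequence features that their selection by name did not use. In the 250 nt before the start codon, read on both strands, the PAC core GATGAG occurred in 57 of 60 members (95%), against 16.5% of all 5913 mRNA genes. The full PAC element GCGATGAG, which contains that core, occurred in 37 members (61.7%), against 3.89% of all genes. RRPE, searched as AAAAATTT, occurred in 51 members (85.0%), against 13.6% of all genes. Core and RRPE were both present in 49 members (81.7%), against 5.06% of all genes. Among 79 other ribosome biogenesis genes the pair occurred in 69.6%, and among 138 cytosolic ribosomal protein genes in 0.725%. These matches describe letters in a window and not bound sites. In RRP5 and RPF1 the counting interval of the glucose ratio, given below, left out 1. Shown here are the promoters of RRP5 (chrXIII:731124-731373, minus strand) and RPF1 (chrVIII:281245-281494, plus strand), in the R64 sequence from RefSeq. RRPE and PAC matches are in capitals and the last base is next to the start codon:
RRP5: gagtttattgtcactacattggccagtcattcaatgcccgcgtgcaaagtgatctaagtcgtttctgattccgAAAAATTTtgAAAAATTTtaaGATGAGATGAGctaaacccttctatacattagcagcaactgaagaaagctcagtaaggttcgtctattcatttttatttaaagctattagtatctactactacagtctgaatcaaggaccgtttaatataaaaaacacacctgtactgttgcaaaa
RPF1: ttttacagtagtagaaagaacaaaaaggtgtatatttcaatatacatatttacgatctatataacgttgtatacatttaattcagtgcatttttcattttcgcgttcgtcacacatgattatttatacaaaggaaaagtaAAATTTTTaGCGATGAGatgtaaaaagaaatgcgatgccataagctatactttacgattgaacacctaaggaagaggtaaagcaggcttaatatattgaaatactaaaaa
In RRP5 RRPE began 177 nt and again 167 nt before the start codon and the core 156 and 151 nt before it. In RPF1 an RRPE on the opposite strand began 110 nt and PAC 101 nt before the start codon.

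In the 150 nt after the stop codon the Puf4 form TGTANANTA occurred on the mRNA strand in 30 of 60 members (50.0%, 32 sites), against 374 of 5913 mRNA genes (6.33%). It occurred in 34.2% of other ribosome biogenesis genes, 5.80% of cytosolic ribosomal protein genes and 1.49% of mitochondrial ribosomal protein genes. The Puf3 form TGTANATA occurred in 16.7% of members, against 12.8% of all genes and 97.0% of the 67 mitochondrial ribosomal protein genes. The efficiency element of 3' end formation, TATATA, occurred in 50.0% of members and 42.9% of all genes.

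Clusters touched 15 of the 32 Puf4 sites of the members in at least 1 list (46.9%), against 43.3% of the 386 such sites of all mRNA genes. By list, 10 sites were touched after glucose starvation, 9 after nitrogen starvation, 5 in total RNA and 9 in log-phase polyA RNA. These were 31.2%, 28.1%, 15.6% and 28.1% of the members' sites, where 19.7%, 21.5%, 17.6% and 26.2% of all such sites were touched. The members differed from mRNA at large in how many carried the letters, by shares of 50.0% and 6.33%, more than in the share of sites touched. Of all T in the same 150 nt of the members, clusters covered 14.6%, 13.9%, 6.07% and 17.3% in that order of lists. Over all mRNA genes they covered 12.5%, 13.6%, 10.1% and 16.2%. A site counted as touched where at least 1 of its bases met a cluster, while the T shares count single bases. The level of touched sites therefore cannot be read against the T shares. A touched site may reflect general coverage of the flank, which was not tested. The sites touched in 3 or more lists are shown with the 10 bases on either side and the Puf4 form in capitals:
DIP2: ttaaattatcTGTATATTAtacaattcca
DBP3: aacaaaacacTGTATATTActattataac
EBP2: atcatctcttTGTACACTAgtataaaata
RPF2: ccataaacttTGTATATTAtatgataatc
RRP8: ttttttctttTGTATACTAtatttataca
RRP9: atgtatctttTGTAAAATAtctaaaaaaa
The DIP2 site (chrXII:402552-402580, plus strand) began 74 nt after the stop codon and was touched in all 4 lists. The DBP3 (chrVII:360188-360216, minus), EBP2 (chrXI:127102-127130, plus), RRP8 (chrIV:613286-613314, plus) and RRP9 (chrXVI:804180-804208, plus) sites were touched in the 3 polyA lists and not in total RNA. The RPF2 site (chrXI:591474-591502, minus) was touched after nitrogen starvation, in total RNA and in log-phase polyA RNA, and not after glucose starvation. Sites of BRX1, NOP2, NOP4, NSR1 and UTP20 were touched in 2 lists, and those of NOG2, NOP1, NOP12 and NOP58 in 1. RRP5 carried 3 such sites within its 150 nt, and none was touched in any list.

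**Figure D1:**
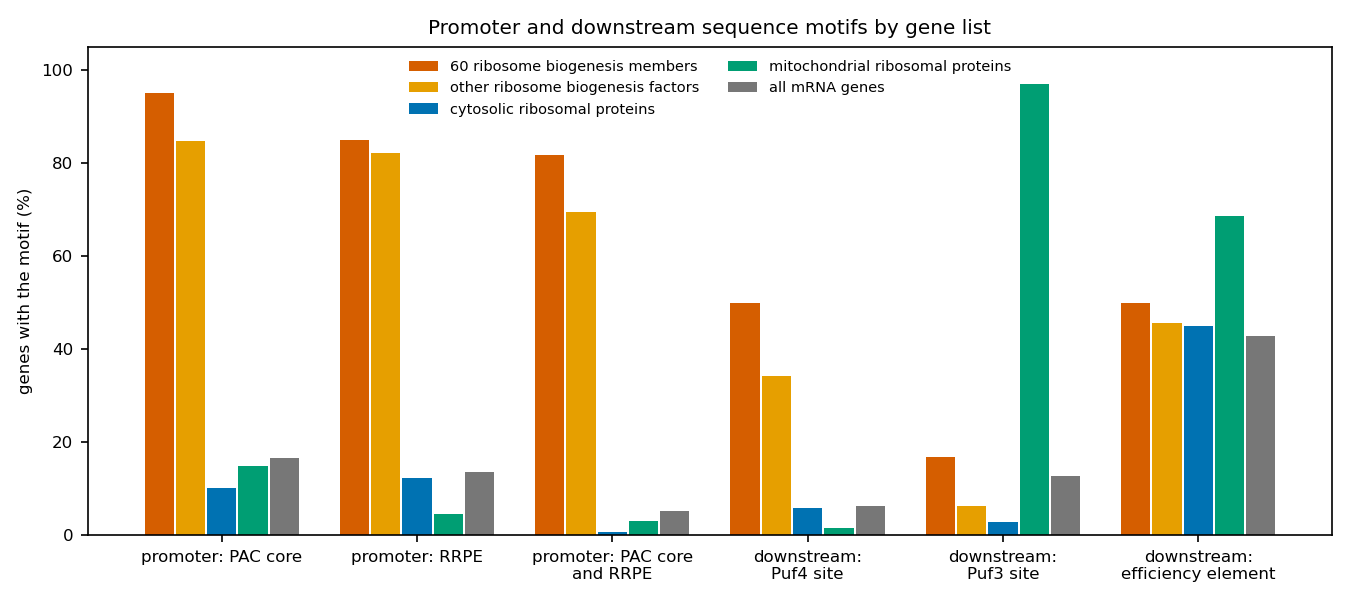
Share of genes (y axis, %) that hold each motif in the 250 nt before the start codon (both strands) or the 150 nt after the stop codon (mRNA strand), for the 60 members, 79 other ribosome biogenesis genes, 138 cytosolic and 67 mitochondrial ribosomal protein genes and all 5913 mRNA genes. The PAC core stood in 95% of members and 16.5% of all genes, the Puf4 form in 50.0% and 6.33%, and the Puf3 form in 97.0% of mitochondrial ribosomal protein genes.

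Protein-bound stretches of the 60 mRNAs took up more of the glucose-starvation list, and less of the total RNA list, than of the log-phase polyA list. They held 328 clusters after glucose starvation (0.984% of the list, 95% Wilson interval 0.883 to 1.10), 260 after nitrogen starvation (0.668%, 0.592 to 0.754) and 198 in total RNA (0.384%, 0.334 to 0.441), against 403 in log-phase polyA RNA (0.660%, 0.599 to 0.728). Per cluster of the list, the count after glucose starvation was 1.49 times that of log phase (exact conditional binomial 95% interval 1.28 to 1.73). The count after nitrogen starvation was 1.01 times that of log phase (0.862 to 1.18), and that of total RNA was 0.581 times that of polyA RNA (0.488 to 0.691). Set against the mRNA clusters of each list in place of all clusters, these ratios were 1.39, 0.986 and 0.472. The 3 comparisons share the log-phase polyA list and are not independent of each other.

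Most members carried a cluster in every list, as most mRNA genes did. Of 60 members, 59 carried a cluster after glucose starvation, 58 after nitrogen starvation, 54 in total RNA and 60 in log-phase polyA RNA, and 51 carried one in all 4 lists. Over all mRNA genes 87.5%, 90.4%, 84.8% and 94.1% carried a cluster in those lists, and 4605 of 5913 genes carried one in all 4. The median member had 5, 4, 2 and 6 clusters in that order, where the median mRNA gene had 3, 4, 4 and 6. Members with no cluster were DBP8 after glucose starvation, UTP13 and UTP21 after nitrogen starvation, and UTP4, NOC4, ENP1, ROK1, YTM1 and RRP1 in total RNA. The coding regions of the members were longer than usual, with a median of 1725 nt from start to stop codon against 1185 nt over all mRNA genes, which raises the number of clusters a gene can hold.

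Per length of gene and flanks, NSR1, whose product is the yeast relative of nucleolin, had 70.9 covered nt per kb after glucose starvation, 85.6 after nitrogen starvation and 79.6 in total RNA, against 149 in log-phase polyA RNA. The log-phase value was the highest of any member in any list. NOP56, a core protein of the box C/D particles that guide rRNA methylation, had 84.4, 42.5 and 81.0, against 69.1 nt per kb. NOP1, the methyltransferase of the same particles, was the most covered per length in total RNA, with 85.9 nt per kb. At the other end RRP5 had 4.04, DBP8 5.17 and UTP13 5.92 nt per kb in log-phase polyA RNA, where the median member had 35.0. Median members of the glucose, nitrogen and total lists had 26.7, 21.6 and 11.9 nt per kb, but these values are not scaled for the size of the lists.

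**Figure D2:**
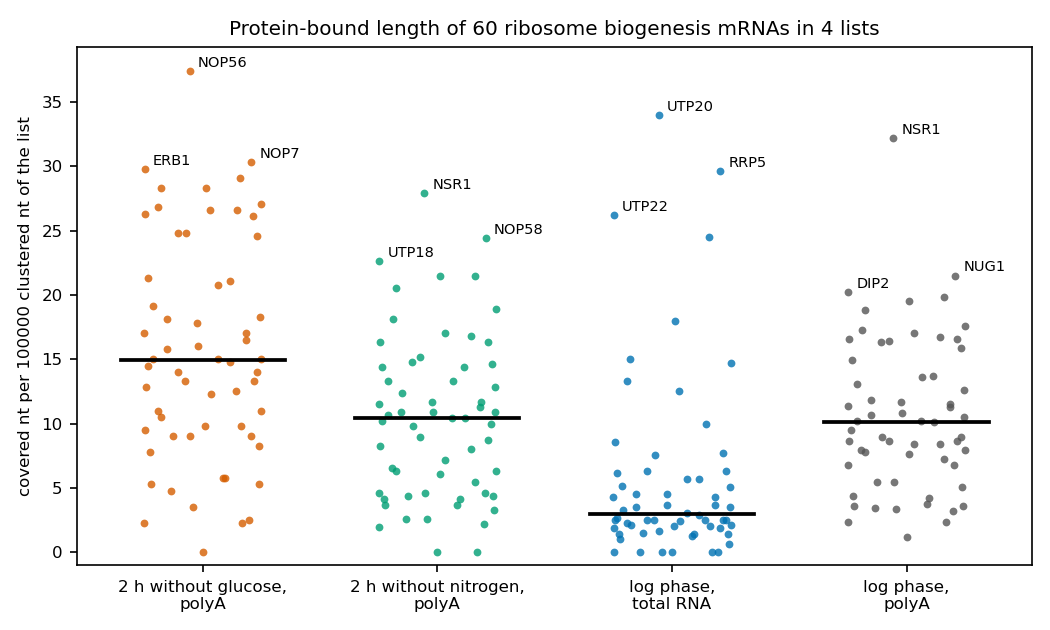
Covered nt per 100000 clustered nt of the list (y axis) for each of the 60 mRNAs (points, spread sideways for visibility) in the 4 pooled lists, with the median as a black line and the 3 highest members named. NSR1 led log-phase polyA RNA at 32.2 and UTP20 led total RNA at 34.0, while 6 members lay at 0 in total RNA.

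For a comparison gene by gene, covered nt of each gene were taken per clustered nt of the list after 20 nt had been added, and the log2 ratio was centred on the median of all mRNA genes with a cluster in either list. Before centring those medians were 0.26 for glucose, 0.15 for nitrogen and -0.17 for total over polyA RNA. A gene is counted as higher or lower where the centred ratio was 2-fold or more, a size limit and not a test.

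After glucose starvation 45 of 60 members lay above the all-gene median, with a median log2 ratio of 0.28 (quartiles 0.01 and 0.71). Of the members, 8 were 2-fold or more higher (13.3%), where 4.19% of 5612 mRNA genes were, and 1 was lower, where 6.15% of all genes were. The higher ones were UTP6, IMP4, KRR1, RRP3, RRP5, YTM1, RPF1 and NOP12, and the lower one was UTP8. Without centring 15 members were higher and 1 lower, against 8.95% and 2.62% of all genes. The other ribosome biogenesis genes had the same median of 0.28, with 61 of 77 above 0 but 3 of 77 higher by 2-fold. The 15 genes of RNA polymerase I, which transcribes ribosomal RNA, had a median of -0.34, cytosolic ribosomal protein genes 0.14 and mitochondrial ribosomal protein genes -0.05.

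After nitrogen starvation the members sat on the all-gene median, at -0.06, with 29 of 60 above it. UTP6 and RRP5 were 2-fold or more higher (3.33%, where 4.86% of 5636 genes were) and UTP21, UTP20 and NOC3 lower (5.00%, where 4.81% were). These shares are those of mRNA genes at large. The sign of the median turned with the window, to 0.04 with flanks of 200 and 300 nt, and likewise to 0.04 when either strand was counted. Other ribosome biogenesis genes had a median of 0.00, and cytosolic ribosomal protein genes -0.41.

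In total over polyA RNA of log-phase cells the median of the members was -0.91 (quartiles -1.32 and -0.20), and 12 of 60 lay above the all-gene median. Of the members 24 were 2-fold or more lower (40.0%), where 19.1% of 5639 mRNA genes were, and UTP10 and RRP5 were higher (3.33%), where 16.6% of all genes were. With genes lacking a cluster set at 3 clusters, the counting floor, the median was -0.94. Other ribosome biogenesis genes had a median of -0.74 with 32 of 78 lower (41.0%). For cytosolic ribosomal protein genes the median was 0.31, and 0 of 138 were lower and 12 higher. Without centring 34 members were lower and 2 higher, against 23.7% and 12.5% of all genes.

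**Figure D3:**
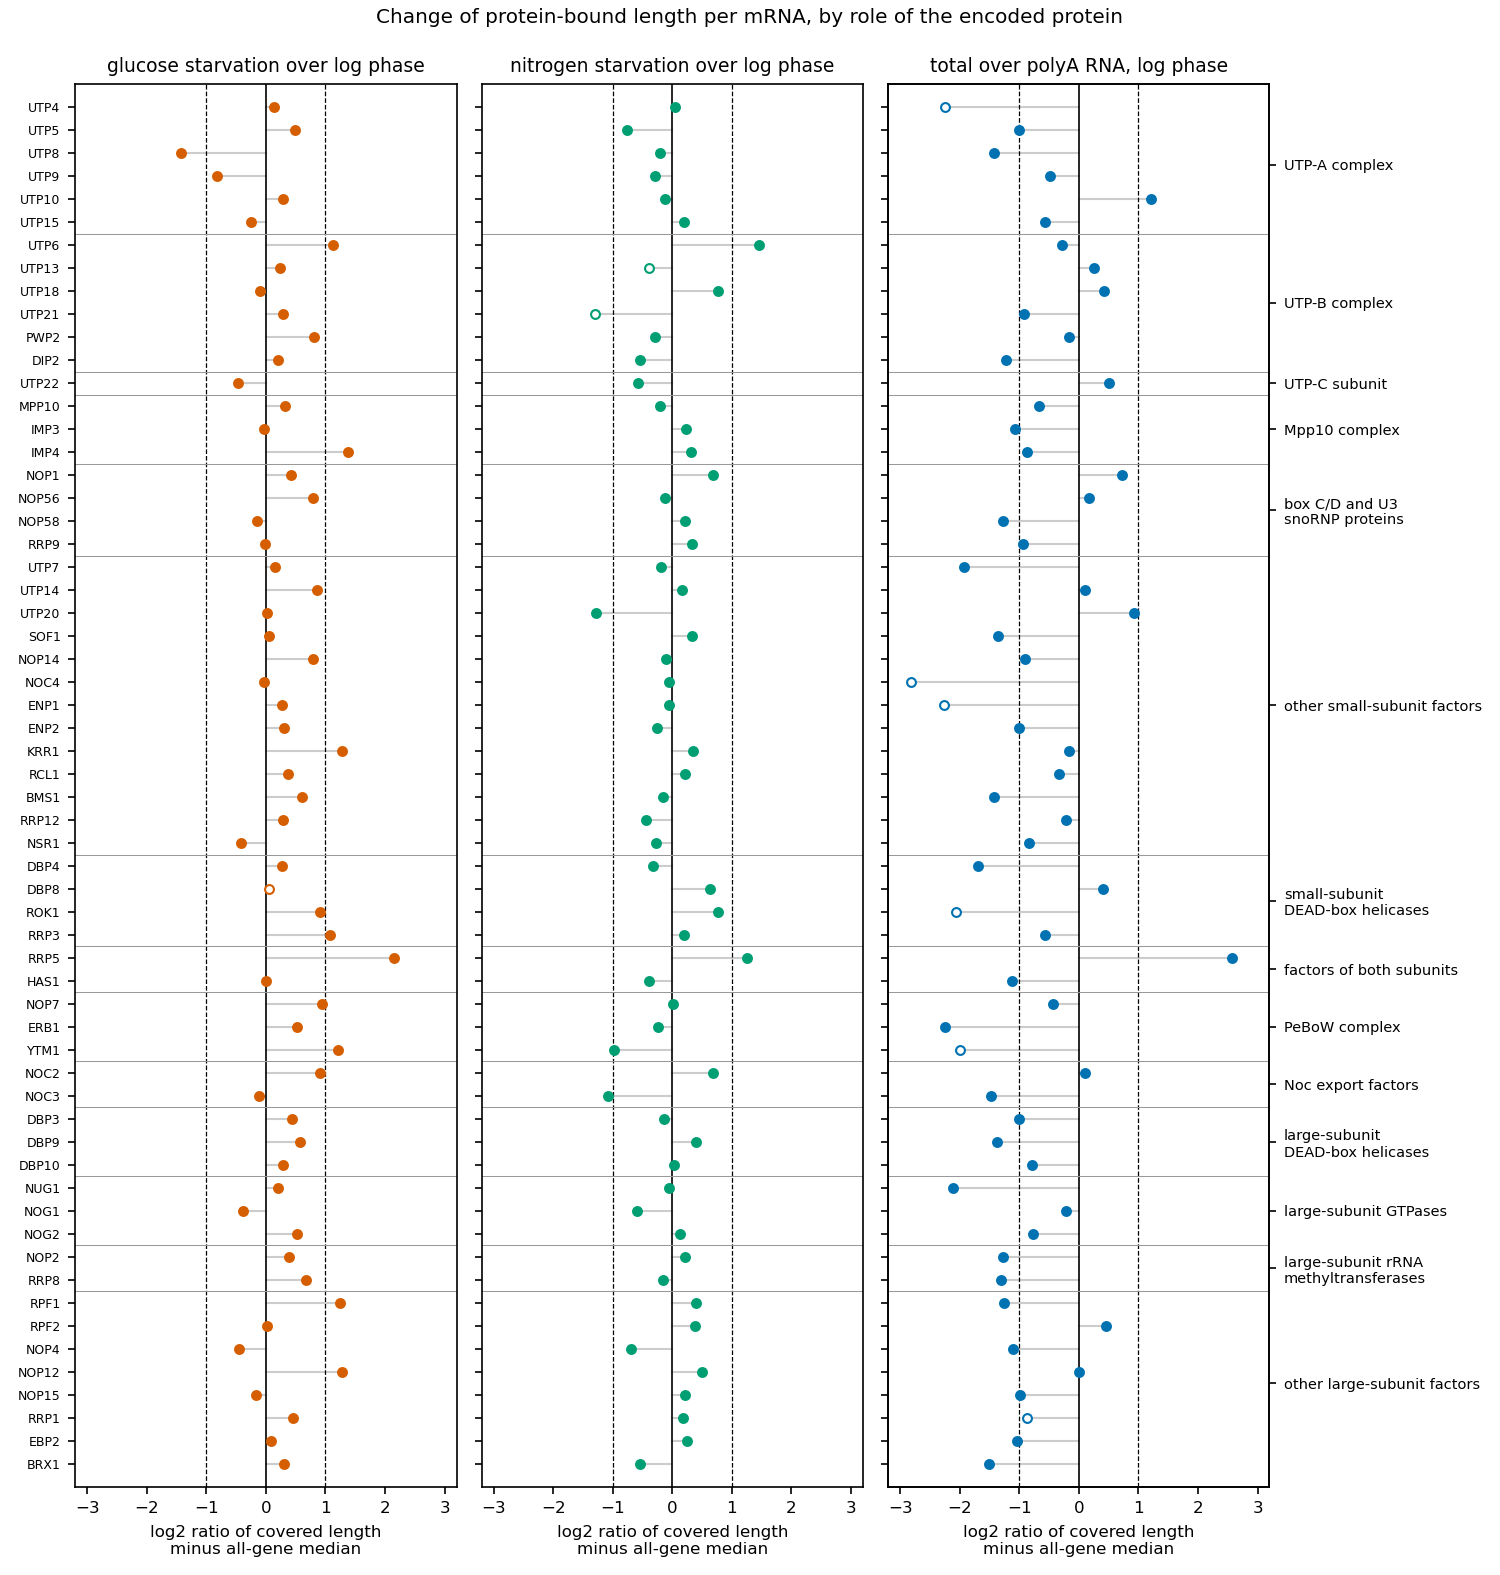
Log2 ratio of covered length per clustered nt, centred on the all-gene median (x axis), for each of the 60 mRNAs (rows), grouped by the role of the protein; dashed lines mark 2-fold and open circles are members with no cluster in 1 of the lists, whose position depends on the added 20 nt. RRP5 lay at 2.15, 1.26 and 2.58 in the 3 panels, and 48 of 60 points of the right panel lay at or below 0.

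RRP5 had the highest centred ratio of the members in the glucose and the total RNA comparison, and came after UTP6 in the nitrogen comparison. Its product is a long RNA-binding protein needed for making both ribosomal subunits. RRP5 (chrXIII:725934-731123, minus strand, 5190 nt) had 7 clusters covering 108 nt after glucose starvation, 6 covering 54 nt after nitrogen starvation and 12 covering 235 nt in total RNA, against 2 clusters covering 22 nt in log-phase polyA RNA. The centred ratios were 4.43-fold, 2.40-fold and 5.96-fold, all set against the same 2 clusters. By cluster number the ratio was 6.41 for glucose (1.22 to 63.2), 4.70 for nitrogen (0.841 to 47.6) and 7.10 for total RNA (1.58 to 65.3). The 2 log-phase clusters lay 89 nt before the start codon and at nt 4644 of the coding sequence, and both places also held a cluster in each starved list. In total RNA 11 of its 12 clusters lay inside the coding sequence. HAS1, a helicase of both subunits, had 2, 2 and 2 clusters against 6.

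The UTP-A proteins are the first to join the nascent precursor, and the UTP-B proteins follow. Above the all-gene median after glucose starvation lay 3 of 6 UTP-A members, with a median log2 ratio of -0.06 (range -1.43 to 0.48). In UTP-B 5 of 6 did, with a median of 0.26 (range -0.10 to 1.12). The ranges overlap, and with 6 genes in each a difference between the complexes was not tested. After nitrogen starvation 2 of 6 lay above the all-gene median in each complex. UTP8 had 1 cluster covering 9 nt after glucose starvation, against 9 covering 94 nt in log phase (0.203 times per list cluster, 0.00464 to 1.47). UTP9 had 3 clusters against 10 in the same comparison (0.549 times, 0.0971 to 2.13). UTP10, the longest of them at 5310 nt, had 13 clusters covering 195 nt in total RNA, against 7 covering 71 nt in polyA RNA (2.20 times, 0.815 to 6.51). UTP4 had 0 clusters in total RNA, against 6 in polyA RNA, with an interval of the ratio from 0 to 1.01 that includes 1. UTP5 had 2 clusters after nitrogen starvation, against 6 in log phase.

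Of the UTP-B members UTP6 had 3 clusters covering 53 nt after glucose starvation and 4 covering 78 nt after nitrogen starvation, against 3 covering 29 nt in log phase. The centred ratios were 1.12 and 1.45 on the log2 scale, and by number the nitrogen ratio was 2.09 (0.354 to 14.3). UTP18 had 6 clusters covering 104 nt after nitrogen starvation, against 8 covering 80 nt. UTP21 had 0 clusters after nitrogen starvation and 4 in log phase, too few for a bound on the fold. DIP2 held the most clusters of the complex, with 9, 5 and 5, against 14 in log-phase polyA RNA. UTP22, of the UTP-C complex, had 6, 7 and 14 clusters, against 12, and was among the 5 highest members in total over polyA RNA at 0.51 on the log2 scale.

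Members of the Mpp10 complex, which binds U3 snoRNA and the precursor, had 8, 8 and 3 clusters over 3 genes, against 10. IMP3 and IMP4 are short, at 552 and 873 nt. Per length in log-phase polyA RNA, MPP10 had 14.8, IMP3 47.4 and IMP4 22.3 covered nt per kb, where the median member had 35.0. IMP4 had 4 clusters covering 60 nt after glucose starvation, against 3 covering 25 nt in log phase (2.44 times by number, 0.413 to 16.7). The box C/D and U3 proteins NOP1, NOP56, NOP58 and RRP9 had 26, 23 and 22 clusters, against 30. NOP1 had 8 clusters covering 106 nt in total RNA, against 5 covering 55 nt in polyA RNA (1.89 times, 0.546 to 7.36). NOP58 had 3 clusters covering 45 nt in total RNA, against 11 covering 135 nt (0.323 times, 0.0578 to 1.22). The partner genes thus lay on opposite sides of the all-gene median in that comparison, at 0.72 for NOP1 and -1.28 for NOP58, with counting intervals that overlap.

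The 13 other small-subunit factors included 5 of the 24 members lower in total RNA, namely UTP7, SOF1, NOC4, ENP1 and BMS1. NOC4, the partner of Nop14 in the small-subunit precursor, had 8 clusters covering 73 nt after glucose starvation, 7 covering 77 nt after nitrogen starvation and 0 in total RNA, against 10 covering 118 nt in log-phase polyA RNA. By number its total over polyA ratio had an interval of 0 to 0.528. Many NOC4 places recurred among the polyA lists, for instance those near nt 858, 1018 and 1195 of its 1659-nt coding sequence. ENP1, which stays on the small-subunit precursor during export, had 5, 5 and 0 clusters, against 7, and its total over polyA interval by number was 0 to 0.821. UTP7 had 1 cluster in total RNA, against 9 in polyA RNA (0.131 times, 0.00300 to 0.949). KRR1, a protein with a KH fold, had 6 clusters covering 53 nt after glucose starvation, against 3 covering 24 nt (3.66 times, 0.782 to 22.6). UTP20, a very long repeat protein, had 3 clusters covering 25 nt after nitrogen starvation and 16 covering 270 nt in total RNA, against 12 covering 130 nt in log-phase polyA RNA.

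The 4 small-subunit DEAD-box helicases DBP4, DBP8, ROK1 and RRP3, which unwind RNA duplexes in the precursor, had 21, 16 and 4 clusters, against 20. ROK1 had 7 clusters covering 85 nt after glucose starvation, 8 covering 83 nt after nitrogen starvation and 0 in total RNA, against 6 covering 62 nt in log-phase polyA RNA, and its total over polyA interval by number was 0 to 1.01. DBP8 had 0, 1 and 1 clusters, against 1, so it gives no comparison.

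The PeBoW genes NOP7, ERB1 and YTM1, whose products act together on the large-subunit precursor, lay above the all-gene median after glucose starvation in all 3 cases, at 0.94, 0.53 and 1.21 on the log2 scale. By cluster number these glucose ratios were 2.01 (0.776 to 5.29), 2.52 (0.922 to 7.21) and 2.56 (0.700 to 10.2), and each interval includes 1. Also above that median were 4 of 4 small-subunit helicases, 3 of 3 large-subunit helicases, 2 of 2 methyltransferases and 45 of all 60 members. The PeBoW genes had 29 clusters after glucose starvation, 12 after nitrogen starvation and 6 in total RNA, against 23 in log-phase polyA RNA. NOP7 had 11, 5 and 5 clusters, against 10. ERB1 had 11, 6 and 1 clusters, against 8, and its total over polyA ratio by number was 0.148 (0.00333 to 1.10). YTM1 had 7, 1 and 0 clusters, against 5, covering 104, 9 and 0 nt, against 58 nt, and its total over polyA interval by number was 0 to 1.29. YTM1 also had 0.314 times the log-phase number after nitrogen starvation (0.00663 to 2.80).

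The products of the Noc genes move precursors of the large subunit toward export. NOC2 had 7, 7 and 4 clusters, against 7, and NOC3 had 4, 2 and 1, against 6. Their counting intervals overlapped in each comparison, with 0.469 to 5.24 and 0.0516 to 2.92 for nitrogen, and all included 1. The large-subunit helicases DBP3, DBP9 and DBP10 had 20, 19 and 10 clusters, against 26, of which DBP3 had 9, 7 and 5, against 9. The large-subunit GTPases NUG1, NOG1 and NOG2 had 23, 24 and 15, against 33. NUG1 had 2 clusters covering 20 nt in total RNA, against 11 covering 149 nt in polyA RNA (0.215 times, 0.0232 to 0.986). The 25S rRNA methyltransferases NOP2 and RRP8 had 14, 11 and 3 clusters, against 17. NOP2 had 2 clusters in total RNA, against 12 in polyA RNA (0.197 times, 0.0214 to 0.886).

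Among the 8 other large-subunit factors RPF1 had the highest glucose ratio by cluster number, while NOP12 had the higher centred ratio, 1.27 against 1.25 on the log2 scale. RPF1 (chrVIII:281495-282382, plus strand, 888 nt) had 11 clusters covering 99 nt after glucose starvation, 5 covering 50 nt after nitrogen starvation and 1 covering 11 nt in total RNA, against 5 covering 53 nt in log-phase polyA RNA. By number the glucose ratio was 4.03 (1.29 to 14.8). After glucose starvation 1 RPF1 cluster spanned the start codon and 8 lay between nt 681 of the coding sequence and the end of the downstream flank, where log phase held 1. NOP12, an RNA-binding protein of large-subunit assembly, had 5 clusters covering 71 nt after glucose starvation, against 5 covering 35 nt. NOP4 had 2 clusters after glucose starvation, against 5 in log phase. RRP1 had 1, 1 and 0 clusters, against 2. Over all 60 members the counting interval left out 1 for RRP5 and RPF1 in the glucose comparison, for none in the nitrogen comparison, and for RRP5, UTP7, NOC4, ENP1, NUG1 and NOP2 in total over polyA RNA. These intervals were not corrected for the choice among 60 genes. Their ratios were scaled by list size and not centred on the all-gene median. The same count was not taken over all mRNA genes, so whether these numbers are unusual cannot be told.

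**Figure D4:**
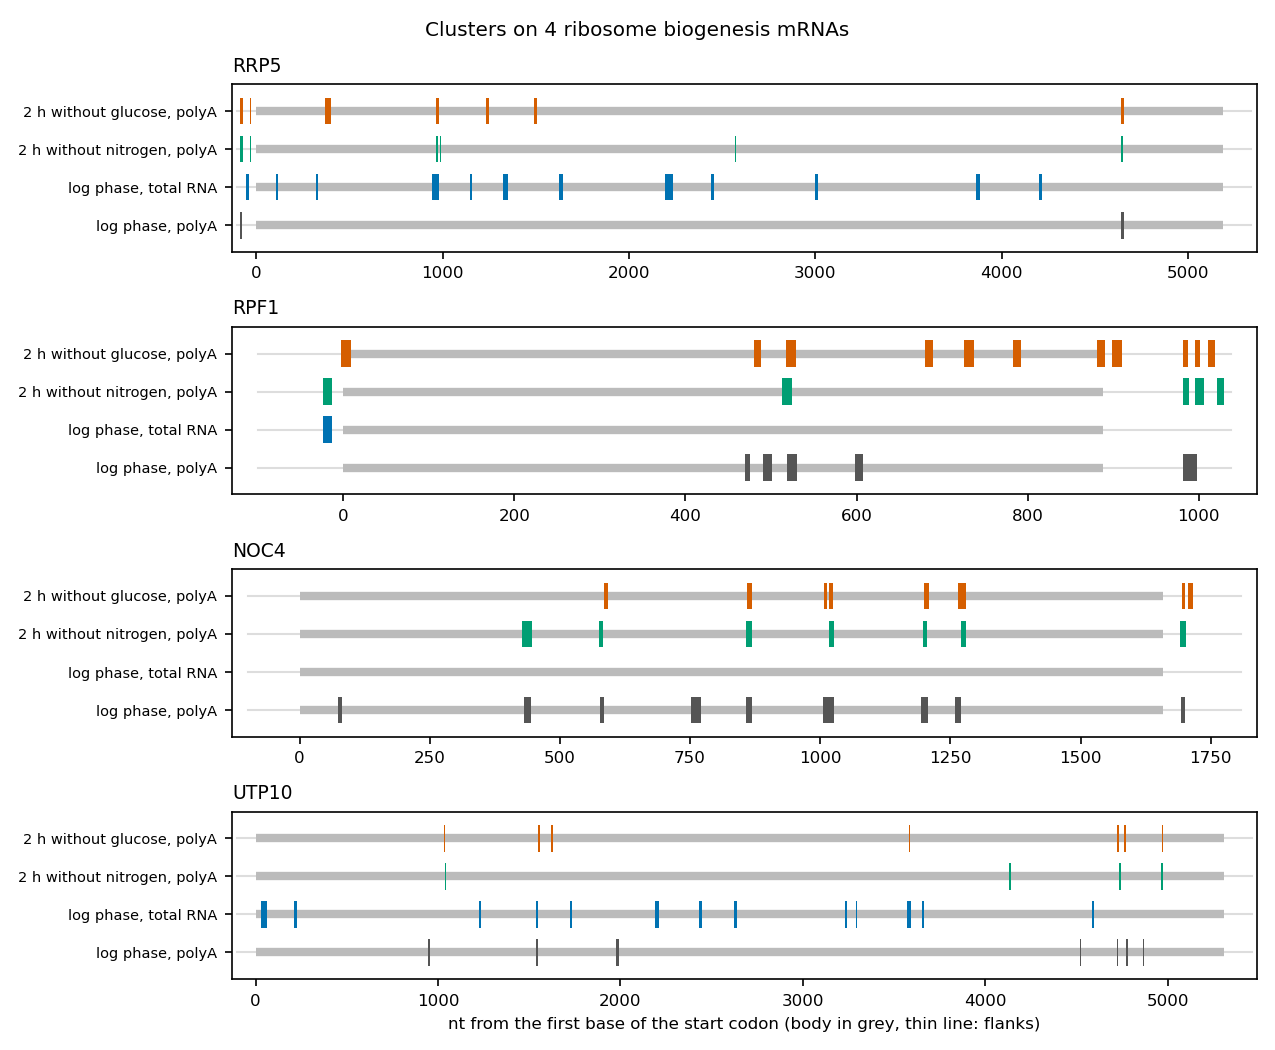
Position of every cluster (coloured bars, drawn to scale) on RRP5, RPF1, NOC4 and UTP10 in the 4 lists, in nt from the first base of the start codon (x axis), with the coding region in thick grey and flanks as a thin line. RRP5 held 2 clusters in log-phase polyA RNA and 12 in total RNA, and NOC4 held 10 and 0.

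The 6 members longer than 3000 nt, a limit chosen after the values were seen, had a higher median in total over polyA RNA than shorter members. UTP10, UTP22, UTP20, BMS1, RRP12 and RRP5 had a median log2 ratio of 0.72 (range -1.43 to 2.58). The 35 members of 1500 to 3000 nt had -1.0 (-2.81 to 0.43) and the 19 shorter ones -0.87 (-2.27 to 0.72). The ranges overlap, and of the long members BMS1 at -1.43 and RRP12 at -0.21 lay below the all-gene median. Over all mRNA genes the same length classes had medians of 0.59, -0.20 and 0.01. The long class thus had a median above 0 both among members and among all genes, while the other classes of members had lower medians than all genes of their length. Without the 6 long members the group median was -0.96, with 23 of 54 lower and 0 higher. Over all mRNA genes 389 of 1690 genes of 1500 to 3000 nt were lower and 267 higher. Of 3481 shorter genes 646 were lower and 514 higher.

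In the 3 polyA lists the 3' flank was the most densely covered part of the mRNA. In the bin from 51 to 75 nt after the stop codon 18.5% of bases were covered after glucose starvation, 15.1% after nitrogen starvation and 5.53% in total RNA, against 19.1% in log-phase polyA RNA. Over all mRNA genes the same bin held 12.6%, 13.4% and 10.0%, against 15.5%. In total RNA the last 20 nt before the start codon were the densest bin of the members, at 9.58%, above 8.20% in the first bin after the stop codon. There the coding region of the members was covered less than that of mRNA at large. Its first part held 2.19% covered bases, against 7.92% over all mRNA genes, and its last part 0.740%, against 6.19%. The parts of the coding region of the members held 0.789% to 2.03% after nitrogen starvation and 1.60% to 3.29% in log-phase polyA RNA, and each part was below its all-gene value in those lists too. A cluster touched the start codon of 4, 2 and 4 members, against 1 in log-phase polyA RNA. As shares of genes these were 6.67%, 3.33% and 6.67%, against 1.67%, where all mRNA genes had 2.52%, 2.03% and 14.6%, against 4.52%.

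The glucose ratio of the members was the same in the coding region and the downstream flank, but that of all mRNA genes was not. Covered nt of the members per clustered nt were 1.48 times log phase in both, where all mRNA genes had 0.950 in the coding region and 1.32 downstream. The members thus stood further above all genes in the coding region than downstream. After nitrogen starvation the ratios of the members were 0.866 and 1.19, near the 0.923 and 1.25 of all genes. In total over polyA RNA they were 0.589 in the coding region and 0.322 downstream, where all genes had 1.45 and 0.580. Upstream of the start codon the total over polyA ratio was 1.08 for members and 1.23 for all genes, so the members' lower share of total RNA lay in the coding region and downstream flank.

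**Figure D5:**
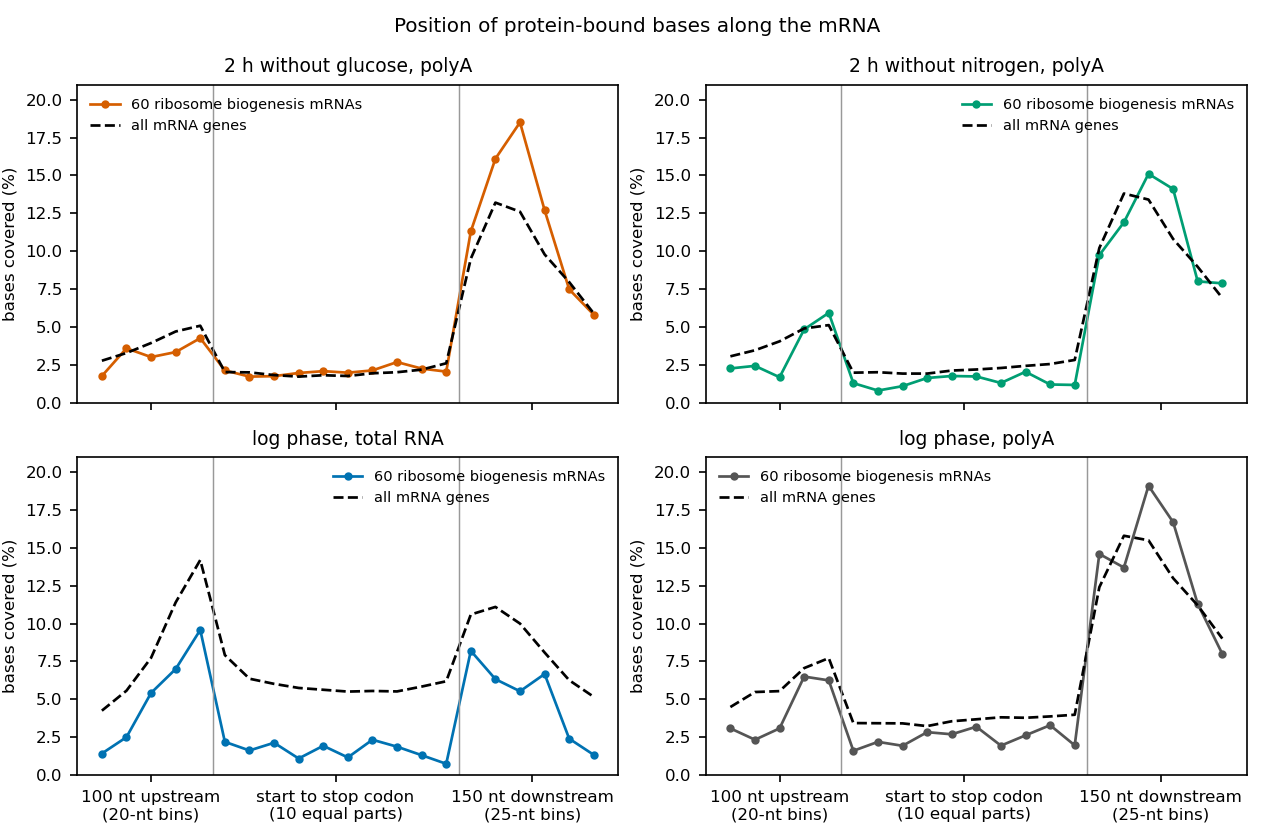
Share of bases covered by a cluster (y axis, %) along the 100 nt upstream, the coding region in 10 equal parts and the 150 nt downstream (x axis), for the 60 members (coloured) and all mRNA genes (dashed), in each list. Members peaked at 18.5% after glucose starvation and 19.1% in log-phase polyA RNA 51 to 75 nt after the stop codon, and ran below all mRNA genes in every part of the coding region after nitrogen starvation, in total RNA and in log-phase polyA RNA.

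Most clusters of starved cells lay where log-phase polyA RNA also held a cluster. Of the members' glucose clusters 211 of 328 (64.3%, 59.0 to 69.3) met a log-phase cluster by at least 1 nt, against 74.3% over all mRNA genes, and of the nitrogen clusters 189 of 260 (72.7%, 67.0 to 77.7), against 73.2%. Of the total RNA clusters 60 of 198 (30.3%, 24.3 to 37.0) met a log-phase polyA cluster, against 30.9% over all genes. Read the other way, 59 of 403 log-phase polyA clusters on members met a total RNA cluster (14.6%, 11.5 to 18.4), against 32.2% over all mRNA genes. Likewise 212 of 403 log-phase clusters met a glucose cluster (52.6%, 47.7 to 57.4), against 43.6% over all genes, and 189 of 403 a nitrogen cluster (46.9%, 42.1 to 51.8), against 48.2%. For glucose the members thus lay below all genes in one direction and above them in the other. The meetings numbered 211 and 212, so these shares differ through the totals of 328 and 403 clusters. Over all mRNA genes the totals were 23275 and 39801. The 14.6% for total RNA likewise depends on the members holding 198 clusters there, against 403. These shares thus carry cluster number as well as position.

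Stretches covered in all 4 lists numbered 29 in 18 members (30.0%), against 46.7% of all mRNA genes with such a stretch. Such a stretch needs a cluster in total RNA, where the median member held 2 and the median mRNA gene 4. The share of genes with a stretch thus also carries cluster number. The stretches of the members were 1 to 12 nt long, and 15 lay downstream of the stop codon, 12 in coding regions and 2 upstream. The longest are shown with the common stretch in capitals and 5 bases on either side:
DBP3: cccacTTTCATTTATCAttaat
NOP56: atataTATATATTATCtttta
PWP2: tatttAATATCAACAAaaaaa
NSR1: tgctcCATTGGGCAgatca
They lie at chrVII:360169-360180 (minus strand, 108 nt after the stop codon), chrXII:547688-547698 (plus, 77 nt after it), chrIII:220361-220371 (minus, 86 nt after it) and chrVII:806462-806470 (minus, in the coding region from nt 1187). The clusters of the members held 37.5% T after glucose starvation, 39.1% after nitrogen starvation, 36.4% in total RNA and 38.7% in log-phase polyA RNA, against 28.1% in the sequence of their windows. G made up 6.50%, 4.35%, 14.3% and 5.74% of clusters, against 20.3% of the windows. Every cluster held a T, the base that 4-thiouracil replaces, so this composition is partly fixed by the method.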

How the data were processed

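The deposited lists give the start, end, strand and name of each cluster on build R64; reads were aligned with Bowtie 0.12.7, per the submitters' processing notes. No source used here names the caller of the clusters or its thresholds. In the deposited files the score column, as the authors left it, is 0 throughout, and the heavy list has none, so no count or coverage per cluster was available. The precision of a value is set by its number of clusters.

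Each cluster went to a RefSeq gene of R64 on its own strand, structural RNAs first, then coding bodies by longest overlap, then flanks. Ratios of cluster counts have exact conditional binomial (Clopper-Pearson) 95% intervals and shares have 95% Wilson intervals, computed with Python 3.11.15, numpy 2.4.6 and scipy 1.17.1. The measure was tested on simulated lists with known changes, drawn without variation between replicates, so that test says nothing on such variation. With 1 pooled list per group no test between conditions was possible.

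The 60 members, the role groups and the other gene lists were chosen with earlier results of these data known. Genes were named by a rule: the 5 highest and 5 lowest ratios per comparison among members with at least 3 clusters, members with no cluster in a list, members with a touched Puf4 site, the member with most clusters per role, and the 3 most and least covered per length. Of the 60 windows 13 meet another window on the same strand, those of UTP9, UTP21, PWP2, DIP2, UTP7, UTP14, KRR1, DBP8, NUG1, NOG2, RRP8, RRP1 and EBP2, where a flank cluster may belong to the neighbour. Alternatives covered the added length, window, strand, cluster width, cluster number, gene filters and centring.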

Additional observations from a re-analysis of the deposited data

Results flagged for a closer look

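SNR191, a box H/ACA snoRNA that lies in the intron of NOG2 (chrXIV:721938-722211, minus strand), held 9 clusters after glucose starvation, 7 after nitrogen starvation and 7 in total RNA, against 8 in log-phase polyA RNA. It is outside the mRNA measure and was looked at because a structural RNA inside a member held clusters. Clusters assigned to NOG2 covered 48, 9 and 35 nt of its intron, against 40 nt, and these are part of the NOG2 values. Clusters that touched SNR191 had been set aside first, so these intron nt lie outside the annotated snoRNA. Which RNA they come from was not tested.

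Clusters on the opposite strand of the members' coding regions, also outside the measure, numbered 9 after glucose starvation, 45 after nitrogen starvation and 16 in total RNA, against 53 in log-phase polyA RNA. They lay over 6, 20 and 10 of the 60 members, against 23. Over all mRNA genes the lists had 1650, 2684 and 1942 such clusters, against 6558, over 16.7%, 23.4% and 16.0% of genes, against 44.7%.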

How the results depend on the processing

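Of 137 alternative values over 21 results, 108 stayed within the limits set for them and 29 moved. The limits were an interval around the main value for medians and shares, and a set fold for counts. Only a median whose interval left out 0 could be labelled as reversed, and 0 were. All other results could only stay or move, so they say nothing on reversal. The nitrogen median was among these, and its turns to 0.04 were counted as staying. With 50 nt added, members higher numbered 1 for glucose, 0 for nitrogen and 1 for total RNA, and members lower 0, 0 and 10, where 0.766%, 1.31% and 11.0% of all genes were higher and 1.75%, 1.53% and 7.24% lower. With 10 nt added the total over polyA median was -1.16. With only clusters of at least 10 nt, members higher numbered 14, 6 and 4, members lower 2 for glucose and 7 for nitrogen (all genes 9.11%, 8.04% and 16.5% higher, 7.58% and 7.34% lower), and Puf4 sites touched 5 for glucose and 3 for total RNA. With either strand counted, members higher numbered 5 for glucose and 4 for nitrogen, members lower 0 for glucose (all genes 3.74% and 4.54% higher, 6.11% lower), and shares of the list 0.873% for nitrogen and 0.822% for log phase. With coding regions alone, shares were 0.666%, 0.396% and 0.258%, against 0.434% in log phase, and 3 members were lower for glucose (all genes 8.30%). With flanks of 200 and 300 nt 4 members were higher for nitrogen (all genes 4.43%), and by cluster number 1 (5.89%). Without centring 15 were higher for glucose (8.95%). A required overlap of 5 nt left 5 Puf4 sites touched for nitrogen. Leaving out members over 3000 nt left 0 higher for total RNA, where 267 of 1690 genes of 1500 to 3000 nt and 514 of 3481 shorter ones were. This setting and that of genes without a cluster at 3 clusters were chosen after seeing the data. The causes of these shifts were not tested.

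No paired analysis was possible because each list pools both replicates, and leaving out a replicate was not possible for the same reason. Most members hold under 10 clusters per list, and the counting interval of a single member left out 1 in 2, 0 and 6 cases in the glucose, nitrogen and total comparisons. No such count over all mRNA genes stands beside these. Covered length has no read depth behind it here.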
